A study of Mus musculus with 8 samples.

Results

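The alpha-crystallins and small heat shock proteins are ATP-independent chaperones that share the alpha-crystallin domain. The members described here were the 8 genes Cryaa, Cryab, Hspb1, Hspb2, Hspb3, Hspb6, Hspb7 and Hspb8, taken from the table by gene name, 8 of its 57010 genes, with no filter on expression. The group was chosen by measured values of the same knockdown and control libraries, so the difference between the groups is a description for these genes and carries no test. RNA came from retinas of C57BL/6J mice, 17 days old, in which exposure to high oxygen and the return to room air had led to abnormal retinal vessels (oxygen-induced retinopathy). The 4 control libraries came from retinas that received a control scAAV, an adeno-associated virus with a self-complementary genome that carries genes into cells. The 4 knockdown libraries came from retinas whose scAAV lowered, by design, the long noncoding RNA MM2P. Both groups thus carried the retinopathy and a vector, and untreated retinas were not analysed here. The treatment label of the second group reads as a knockout, while its sample titles and the study's description point to a knockdown. The promoter that drives the vector's insert, the cells it reached and whether each library was 1 animal are not stated, so p-values measure the spread between these samples, which may be technical.

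Small heat shock proteins assemble into large oligomers that bind unfolding proteins and hold them until other chaperones, which use ATP, refold or remove them. Cryaa and Cryab together make the alpha-crystallin of the eye lens. Cryaa is largely restricted to the lens in most accounts, and Cryab is also abundant in heart, skeletal muscle and glia. In the retina these proteins are known from glial cells and from neurons after injury, and several of their genes are targets of heat shock factors.

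The chromosome positions that follow are from GENCODE M21 on GRCm38. Cryaa lies on the plus strand of chromosome 17 (31677807 to 31681733). Cryab lies on the plus strand of chromosome 9 (50751325 to 50756636), and Hspb2 starts beside it on the minus strand (50751078 to 50752354). The annotated exons of Cryab and Hspb2 share 252 bases, and whether counting used strand is not stated, so reads in that stretch cannot be assigned with certainty. The remaining members lie apart: Hspb1 on chromosome 5 (135887919 to 135889563, plus), Hspb8 on chromosome 5 (116408491 to 116422864, minus), Hspb6 on chromosome 7 (30552178 to 30555443, plus), Hspb3 on chromosome 13 (113662896 to 113663676, minus) and Hspb7 on chromosome 4 (141420779 to 141425311, plus). Exons of Hspb6 share 122 bases with Proser3 on the other strand, which held 58 to 110 counts per library. Gm50222, an antisense gene, shares 273 exonic bases with Cryaa and held 0 counts in all 8 libraries.

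The promoter of Cryaa is shown because Cryaa is the member whose level differed most between the groups. It runs from 250 bases before to 50 bases after the annotated start, from RefSeq on GRCm38.p6, at chr17:31677681-31677980 on the plus strand. Capitals mark TGCTGA, one arm of the recognition element of Maf factors, which are known to act on crystallin genes. The match lies at positions -108 to -103 from the start, and 19.5% of 32851 promoters held this motif on either strand.
Cryaa: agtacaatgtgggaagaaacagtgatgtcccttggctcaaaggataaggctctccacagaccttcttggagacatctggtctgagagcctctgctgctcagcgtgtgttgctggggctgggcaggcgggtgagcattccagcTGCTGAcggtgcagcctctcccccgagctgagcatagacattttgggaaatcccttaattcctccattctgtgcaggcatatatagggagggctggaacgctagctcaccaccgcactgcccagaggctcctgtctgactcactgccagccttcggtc

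The heat shock element, to which heat shock factors bind, was searched as GAA, any 2 bases and TTC (first form) or TTC, any 2 bases and GAA (second form). Each form reads the same on both strands. RefSeq promoters were found for 6 of the 8 members, 7 promoters in all, since Hspb6 has a pair of starts, and Cryab and Hspb2 had no entry. The first form of the element was present upstream of or at a start of Hspb8, Hspb1, Hspb6 and Hspb3, and in 7.80% of all promoters. Either form was present in 14.96% of all promoters, so a match is no sign of use. The matches are printed in windows of 40 bases, 5′ to 3′ on the gene's strand, with the element and 1 base on either side in capitals, to show how the members differ from Cryaa, whose window held neither form.
Hspb8, chr5:116422839-116422878, minus strand: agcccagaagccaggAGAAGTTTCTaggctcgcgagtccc
Hspb1, chr5:135887786-135887825, plus strand: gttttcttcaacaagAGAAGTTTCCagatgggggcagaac
Hspb1, chr5:135887806-135887845, plus strand: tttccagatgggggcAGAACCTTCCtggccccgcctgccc
Hspb6, chr7:30553165-30553204, plus strand: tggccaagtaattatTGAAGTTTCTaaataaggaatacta
Hspb3, chr13:113663877-113663916, minus strand: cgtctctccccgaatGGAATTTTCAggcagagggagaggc

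The elements of Hspb1 lay at -118 to -109 and -98 to -89 and that of Hspb8 at 2 to 11, all counted from the start. Those of Hspb6 (second start, -121 to -112) and Hspb3 (-225 to -216) were the other matches. TATAAA, the core of a TATA box, was found at -29 to -24 of the second Hspb6 start and at -11 to -6 of Hspb3, and in 8.32% of all promoters on the gene's strand. CCAAT, the CCAAT box, had 4 matches before the first Hspb6 start and was held by 37.4% of all promoters on either strand. The Hspb7 promoter held none of these motifs. No match named here overlapped another.

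Estimated counts per library totalled 16.03 to 21.4 M (M, 1000000 counts), with 22895 to 23824 genes above 0, and all 4 knockdown libraries had lower totals than all 4 controls. A count of 3, used as the floor of detection, corresponded to 0.140 to 0.187 CPM (counts per 1000000). CPM is scaled by TMM, edgeR's correction for composition, and serves for comparisons between groups, while TPM (transcripts per 1000000), which divides by gene length, serves for comparisons between genes. The listed target, Mm2pr, held 1, 1, 16.95 and 7.34 counts across controls 1 to 4 and 0, 0, 2 and 20.61 across knockdown libraries 1 to 4, so it did not check the group labels. Markers of rods were abundant, as the labelled tissue would have them, with a summed level of 34907 to 40456 CPM over 7 genes. Among 16118 tested genes, 7 (0.0434%) were called higher and 3 (0.0186%) lower in the knockdown libraries (edgeR's quasi-likelihood test, Benjamini-Hochberg adjusted p under 0.05). All 7 higher genes were crystallins, Cryaa among them. The groups did not overlap in CPM for 534 tested genes (3.31%), called or not.

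Knockdown libraries 1, 3 and 4 stood apart for markers of single tissues or cell states. Knockdown 1 had the highest summed level of 9 astrocyte and gliosis genes, 827 CPM against 274 to 297 in the rest of that group and 275 to 315 in the controls. Knockdown 3 had the highest sum of 14 lens crystallins other than the alpha pair, 120.004 CPM against 11.6 to 31.4 in the rest of that group and 2.41 to 3.65 in the controls. Knockdown 4 had the highest sum of 14 skeletal and extraocular muscle genes, 70.4 CPM against 11.0 to 13.3 in the rest of that group and 13.3 to 18.4 in the controls. Each of these libraries also held the highest value of a member, and those members are given with and without the library concerned. In whole retina, fewer cells of a type and less RNA per cell cannot be told apart.

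Hspb6 and Cryab made up most of the family's transcripts in the control retina. Hspb6, also called Hsp20, is a chaperone best known from smooth and heart muscle, and stood at 111.5 ± 7.62 TPM (SD, n = 4) in the controls. Cryab stood at 67.04 ± 2.83 TPM (SD, n = 4), so that these genes lay above 90.3% and 82.4% of all tested genes by control TPM. Hspb8 followed with 10.3 ± 0.872 TPM (SD, n = 4) and Hspb1 with 8.475 ± 2.73 TPM (SD, n = 4). The remaining members were near or under 1 TPM: Hspb3 at 1.34 ± 0.249, Hspb2 at 0.776 ± 0.4525, Cryaa at 0.3795 ± 0.365 and Hspb7 at 0.152 ± 0.0595 TPM (SD, n = 4 each). In this order the control ranges of TPM did not overlap between Hspb6 and Cryab, Cryab and Hspb8, or Hspb1 and Hspb3. They overlapped between Hspb8 and Hspb1, Hspb3 and Hspb2, Hspb2 and Cryaa, and Cryaa and Hspb7, so those neighbours are not ordered beyond their spread. Within single libraries, Hspb3 exceeded Hspb2 in 4 of 4 controls, and the order of each of the other overlapping pairs held in 3 of 4.

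**Figure D1:**
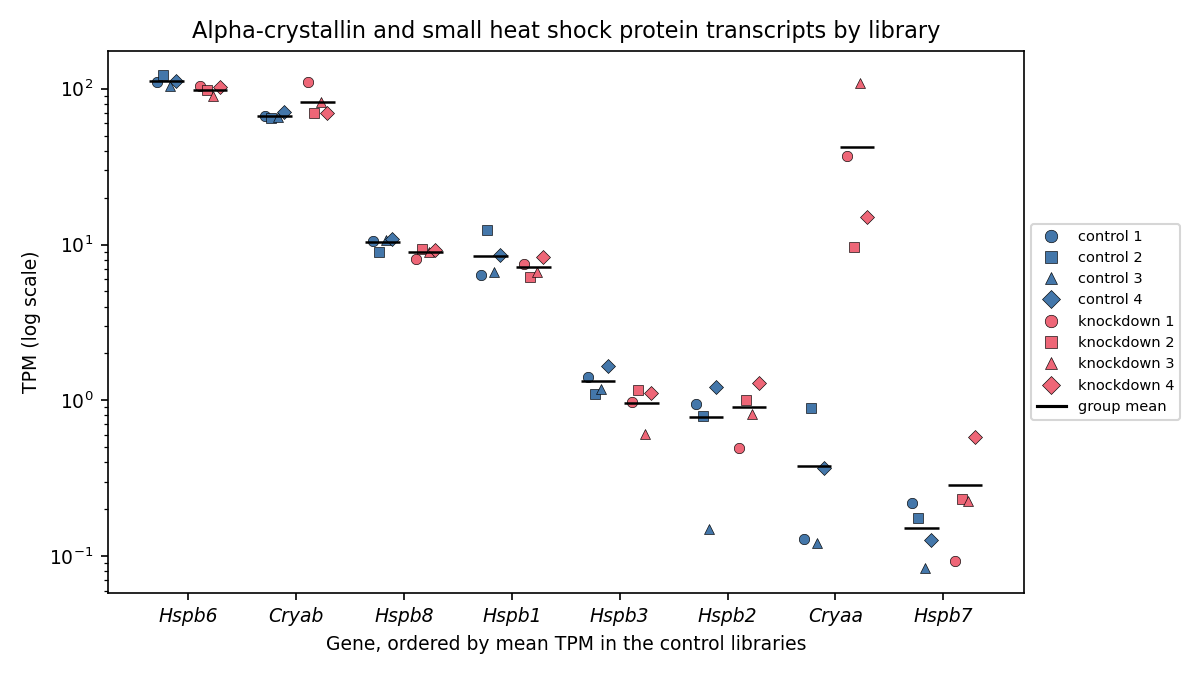
TPM of the 8 members on a log axis, 1 point per library (4 control, 4 knockdown) with the group mean as a line, genes ordered by mean TPM in the controls. Cryaa is at most 0.898 TPM in the controls and at least 9.65 TPM in the knockdown libraries, while the groups overlap for the other members.

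The order in the knockdown retinas differed by the place of Cryaa, which moved from the seventh to the third rank. Cryaa stood at 42.5 ± 45.4 TPM (SD, n = 4) there, behind Hspb6 at 98.6 ± 6.50 TPM and Cryab at 82.6 ± 18.95 TPM (SD, n = 4 each). Its lowest knockdown value, 9.65 TPM, lay just above the highest knockdown value of Hspb8, 9.40 TPM. Hspb6 exceeded Cryab in 3 of the 4 knockdown libraries, the exception being knockdown 1, and Cryab exceeded Cryaa in 3 of 4, the exception being knockdown 3. Hspb8 stood at 8.94 ± 0.596 TPM and Hspb1 at 7.13 ± 0.933 TPM (SD, n = 4 each), with overlapping ranges. Hspb3, Hspb2 and Hspb7 stayed at the bottom, at 0.965 ± 0.252, 0.9003 ± 0.333 and 0.284 ± 0.210 TPM (SD, n = 4 each). Counts per kilobase after TMM scaling gave the same order in the controls, and were not ranked in the knockdown libraries.

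Of the 8 members, 6 passed the filter of at least 1 TPM in at least 4 of 8 libraries and were tested, and Cryaa passed it through its 4 knockdown libraries. Cryaa was called higher and no member was called lower, 1 of the 6 tested members against 0.062% of all tested genes called in either direction. Since this contrast chose the members, nothing is read from that share. Cryaa was also the 1 member of 6 whose groups did not overlap, against 3.31% of all tested genes. Among the 6, 4 log2 fold changes were negative and 2 positive, with a median of -0.20, against a median of 0.00 over all tested genes. The filter lay between Hspb3, which reached 1 TPM in 6 libraries, and Hspb2, which reached it in 3.

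Cryaa, the acidic alpha-crystallin subunit, had 1, 7, 1 and 3 counts across controls 1 to 4 and 277, 71, 654 and 115 counts across knockdown libraries 1 to 4. These counts corresponded to 0.0489, 0.336, 0.0472 and 0.148 CPM among controls and 14.9, 3.70, 40.5 and 5.70 CPM among knockdown libraries. Every knockdown library lay above every control, and knockdown 3 was the highest and knockdown 2 the lowest of the 4. Cryaa rose by a log2 fold change of 6.73 (SE 0.92), the fifth highest of 16118 tested genes, from 0.145 ± 0.136 to 16.2 ± 16.9 CPM (SD, n = 4 each). Of the 4 controls, 3 had no more than 3 counts. From the summed counts, 12 in the controls and 1117 in the knockdown libraries, each divided by the summed TMM-scaled library sizes of its group, the ratio was 103.9 with a 95% exact interval of 59.3 to 201.7, which covers counting error only. The knockdown values spread over a range that reached from 3.70 to 40.5 CPM, so the size of the difference depends on the library. Leaving out 1 library at a time moved the log2 fold change between 5.74 (without knockdown 3) and 7.52, and the call was lost without control 1, control 2 or control 4. It was also lost with a mean of at least 5 TPM as the filter, which leaves Cryaa in the test, with limma on log2(TPM + 1) and with robust dispersion estimates.

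Other lens crystallins were also higher in sum in every knockdown library than in any control, with the highest sum in knockdown 3 and the lowest in knockdown 2, as for Cryaa. Knockdown 1 and knockdown 4 were in the opposite order for Cryaa and for that sum. The 14 genes of the beta and gamma families, structural proteins of the lens fibre, summed to 3.08, 3.65, 2.41 and 3.35 CPM across controls 1 to 4 and 28.5, 11.6, 120.004 and 31.4 CPM across knockdown libraries 1 to 4. Of these 14, 11 were tested and 6 were called higher. Crybb1 and Crybb3 were the 2 of the 14 that reached 1 TPM in all controls, and Crygs was at 0 in all controls. The other tested genes passed the filter through the knockdown libraries in which they were high, so their direction was largely set by the filter and lends no support to that of Cryaa. Of 12 lens genes that are not crystallins, 4 were tested and none was called, and 2 of the 12 reached 1 TPM in all controls. Their sum was 6.26, 4.998, 6.56 and 6.46 CPM across controls 1 to 4 and 6.94, 8.28, 16.9 and 8.88 CPM across knockdown libraries 1 to 4, each knockdown library above each control. Mip, the water channel of lens fibres, stood at 0.587, 0.769, 0.661 and 0.444 CPM among controls and 0.645, 0.208, 5.33 and 0.595 CPM among knockdown libraries, so it was high in knockdown 3, below all controls in knockdown 2 and within the control range in the others. Foxe3, a transcription factor of the lens epithelium, was at 0 in all 8 libraries. The part of lens RNA in the Cryaa difference was not tested.

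**Figure D2:**
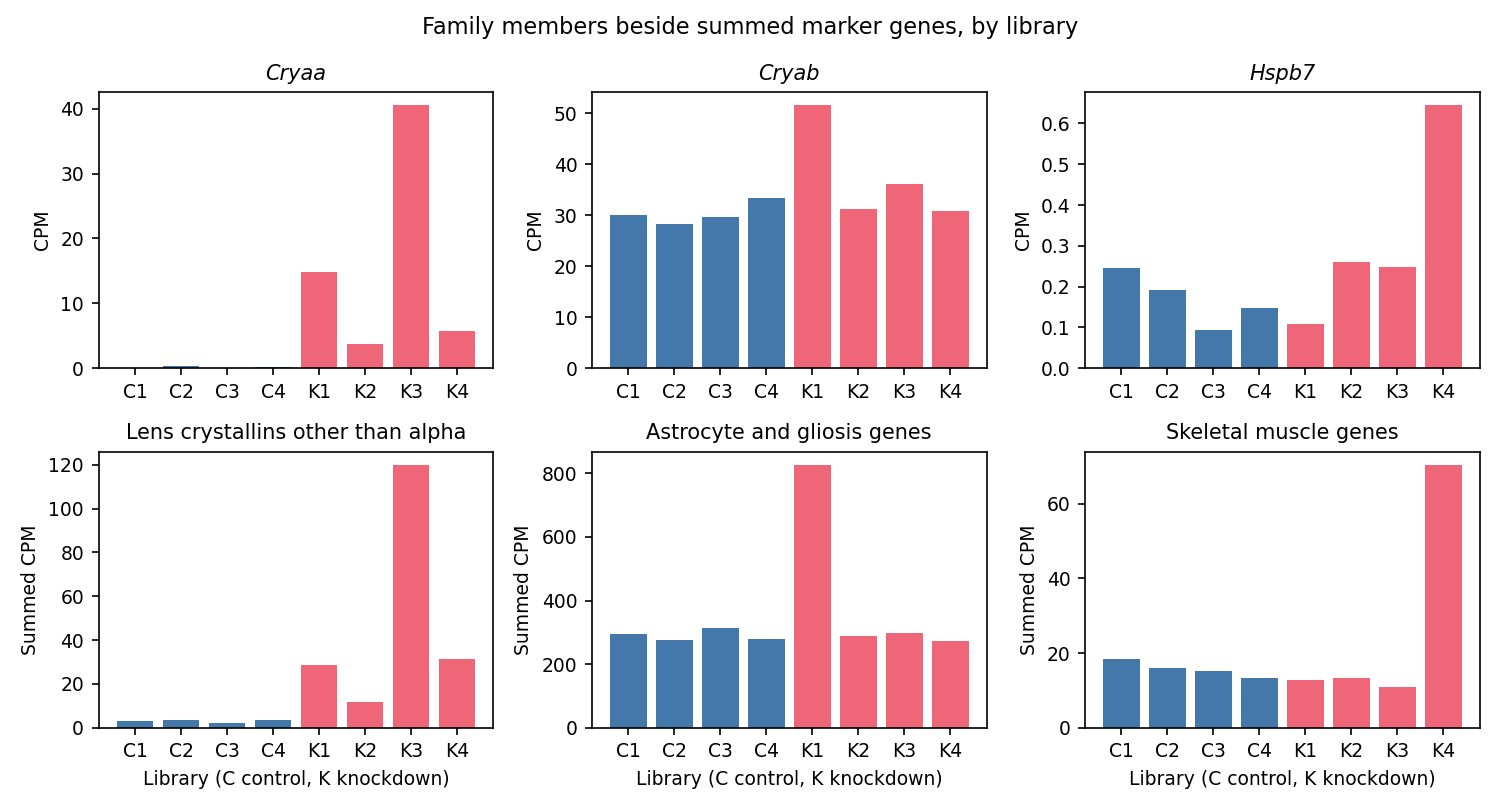
Bars give, for each of the 4 control and 4 knockdown libraries, the CPM of a member (top) and the summed CPM of a marker list (bottom), for Cryaa with other lens crystallins, Cryab with astrocyte and gliosis genes, and Hspb7 with skeletal and extraocular muscle genes. In these chosen pairs, the library with the highest member value also has the highest marker sum. It is knockdown 3 for Cryaa (40.5 CPM), knockdown 1 for Cryab (51.6 CPM) and knockdown 4 for Hspb7 (0.645 CPM, 13 counts). Lists not shown differ: the heart muscle sum is highest in knockdown 1 and the Müller glia sum in control 4.

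Transcription factors that act on lens crystallin genes were not among the called genes. Of 8 listed, 5 were tested, none was called, 2 log2 fold changes were positive and 3 negative. Pax6, which is expressed in lens and in retinal neurons, was at 312 ± 13.0 CPM among controls and 309 ± 31.5 CPM among knockdown libraries (SD, n = 4 each; log2 fold change -0.01, SE 0.07, edgeR adjusted p = 0.998). Prox1, a factor of lens fibres and of several retinal neurons, was at 236 ± 20.9 and 250.5 ± 25 CPM (SD, n = 4 each; log2 fold change 0.09, SE 0.08, edgeR adjusted p = 0.989). Foxe3 and Pitx3 were at 0 in all 8 libraries.

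Cryab, the basic alpha-crystallin subunit and a chaperone of intermediate filaments, had 613, 591, 631 and 676 counts across controls 1 to 4 and 960, 599, 583 and 623 counts across knockdown libraries 1 to 4. In CPM these were 30.003, 28.4, 29.8 and 33.3 in the controls and 51.6, 31.2, 36.1 and 30.9 in the knockdown libraries. Knockdown 1 and knockdown 3 lay above all controls, and the other knockdown libraries lay within the control range. The group means were 30.4 ± 2.09 and 37.5 ± 9.74 CPM (SD, n = 4 each), with a log2 fold change of 0.30 (SE 0.14). Without knockdown 1 the log2 fold change was 0.11. The coefficient of variation of Cryab was 6.88% in the controls and 26.0% in the knockdown libraries, against medians of 8.14% and 9.34% over the tested genes.

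Genes of gliosis were highest in the library where Cryab was highest. The values that follow are from genes named after their values were seen. Lcn2, an acute phase protein of reactive astrocytes, was at 122.6 CPM in knockdown 1 and at 1.98 to 7.66 CPM in the 7 other libraries. Serpina3n, a protease inhibitor of reactive astrocytes, was at 138.75 CPM in knockdown 1 and at 4.49 to 7.93 CPM elsewhere. Gfap, the astrocyte filament protein, was at 135.1 CPM in knockdown 1 and at 32.3 to 66.8 CPM elsewhere. Of the 9 listed astrocyte and gliosis genes, 8 were tested, 7 had positive log2 fold changes with a median over the 8 of 0.32, none was called and 7 of the 9 reached 1 TPM in all controls. Müller glia markers, 8 genes of the main glial cell of the retina, summed to 5155 to 5620 CPM among controls and 4991 to 5538 CPM among knockdown libraries, with a median log2 fold change of 0.01 and none called. In knockdown 3, where Cryab also lay above all controls, the 9 astrocyte and gliosis genes summed to 296.85 CPM, within the control range. The part of gliosis in the Cryab value of knockdown 1 was not tested.

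Intermediate filament genes, whose proteins Cryab and Hspb1 protect, included 3 of 8, Vim, Gfap and Krt18, that were highest in the same library. Vim, the filament protein vimentin of glia and vessels, was at 178.4 to 193.4 CPM among controls and at 261.6, 171.6, 192.8 and 164.1 CPM across knockdown libraries 1 to 4. Knockdown 1 was thus the only library above the control range, and the groups differed by 0.09 on the log2 scale (SE 0.11, adjusted p = 0.989 by edgeR). Krt18, a keratin of simple epithelia, was at 67.4 CPM in knockdown 1 and at most 65.2 CPM elsewhere, with group means of 60.2 ± 3.66 and 59.9 ± 5.57 CPM (SD, n = 4 each). All 8 listed filament genes were tested, 7 had positive log2 fold changes and none was called.

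Cryaa took a larger share of the family's transcripts in every knockdown library than in any control. The TPM of the 8 members summed to 196.4, 210.6, 187.7 and 205.2 across controls 1 to 4 and to 267.8, 194.95, 297.2 and 207.6 across knockdown libraries 1 to 4. Knockdown 1 and knockdown 3 were above all controls. With Cryaa left out of the sum, the controls ranged from 187.6 to 209.7 TPM, and the knockdown libraries stood at 230.7, 185.3, 189.1 and 192.6 TPM, so knockdown 1 alone lay above the controls. The share of Cryaa in the sum was 0.0648% to 0.4265% in the controls and 13.85%, 4.95%, 36.4% and 7.24% across knockdown libraries 1 to 4. As a share of Cryaa plus Cryab, Cryaa was 0.186% to 1.37% in the controls and 25.3%, 12.2%, 56.8% and 17.8% in the knockdown libraries. The ratio of Cryab to Hspb6, by TPM, was 0.531 to 0.637 in the controls. In the knockdown libraries it was 1.05, 0.708, 0.917 and 0.676, each above every control. Taken singly, both genes overlapped between the groups. Most other pairs of members were not compared in this way, so nothing is read from this ratio.

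**Figure D3:**
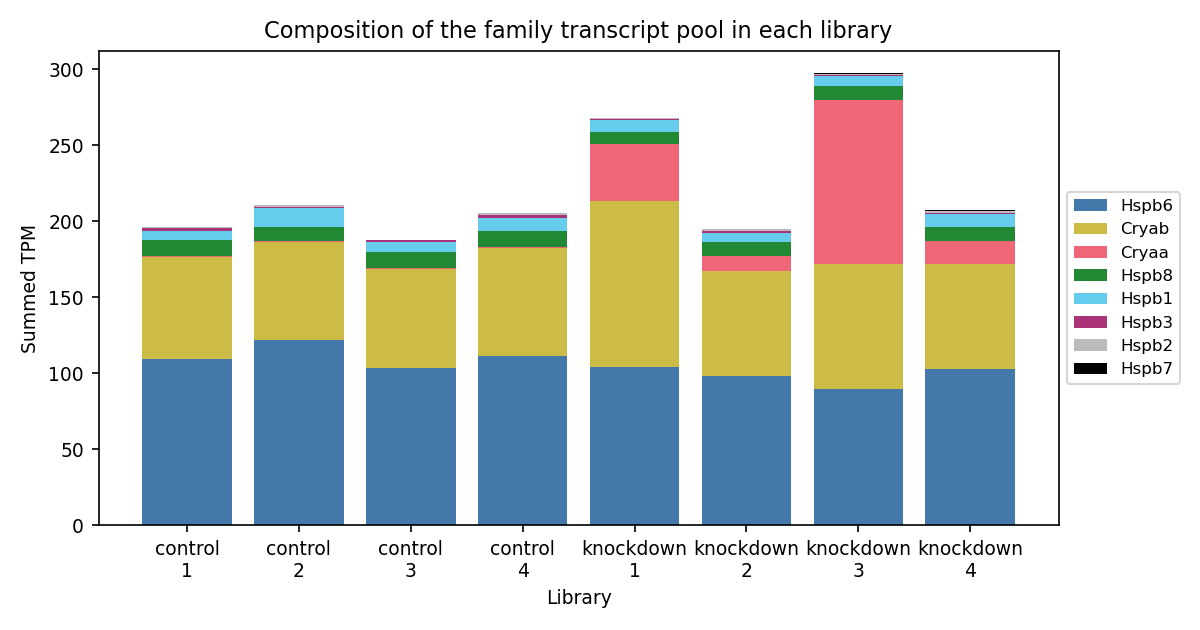
TPM of the 8 members stacked for each library, with Hspb6, Cryab and Cryaa as the 3 widest parts in the knockdown libraries. The stacks reach 187.7 to 210.6 TPM in the controls and 267.8, 194.95, 297.2 and 207.6 TPM across knockdown libraries 1 to 4.

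Hspb6 was the most abundant member in both groups by mean TPM. Its counts were 1223, 1358, 1216 and 1294 across controls 1 to 4 and 1112, 1032, 776 and 1125 across knockdown libraries 1 to 4, or 59.9, 65.3, 57.4 and 63.8 CPM against 59.8, 53.8, 48.1 and 55.8 CPM. Knockdown 2, 3 and 4 lay below all controls, and knockdown 1 lay within their range. The means were 61.6 ± 3.61 and 54.4 ± 4.87 CPM (SD, n = 4 each), with a log2 fold change of -0.18 (SE 0.07), and between -0.23 and -0.13 when single libraries were left out. Hspb6 is known from smooth muscle, and the 10 listed smooth muscle and pericyte genes summed to 385 to 469 CPM among controls and 388 to 402 CPM among knockdown libraries. Of these 10, 9 were tested, 7 had negative and 2 positive log2 fold changes, and none was called. Their part in the Hspb6 difference was not tested.

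Hspb8, also called Hsp22, works with the co-chaperone Bag3 in the disposal of misfolded proteins. It had 157, 134, 168 and 169 counts across controls 1 to 4 and 115, 132, 104 and 135 counts across knockdown libraries 1 to 4, or 7.68, 6.44, 7.93 and 8.33 CPM against 6.185, 6.88, 6.45 and 6.69 CPM. The groups overlapped, and knockdown 1 was the only knockdown library below all controls. The means were 7.595 ± 0.816 and 6.55 ± 0.301 CPM (SD, n = 4 each), with a log2 fold change of -0.21 (SE 0.12). Bag3 stood at 5.58, 6.25, 6.51 and 6.36 CPM among controls and at 10.9, 5.835, 6.26 and 4.91 CPM among knockdown libraries. Bag3 was thus highest in knockdown 1, the library with the highest Cryab and the lowest Hspb8 values.

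Hspb1, known as Hsp25 in mouse, is a stress-induced chaperone that acts on actin and is phosphorylated by kinases of the p38 pathway. Its estimated counts were 46.95, 90.93, 51.98 and 66 across controls 1 to 4 and 53, 43, 38 and 60 across knockdown libraries 1 to 4. In CPM these were 2.30, 4.37, 2.45 and 3.25 in the controls and 2.85, 2.24, 2.355 and 2.975 in the knockdown libraries. The groups overlapped, control 2 was the highest library, and knockdown 2 lay just below all controls. The log2 fold change was -0.25 (SE 0.23) from means of 3.095 ± 0.949 and 2.605 ± 0.362 CPM (SD, n = 4 each), and -0.03 without control 2. Some of these counts carry fractions, so part of them was estimated and not counted as whole reads.

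Hspb2 and Hspb3, known to form a complex with each other in muscle, were at the limit of detection. Hspb3, a gene of 1 exon, had 9, 7, 8 and 11 counts across controls 1 to 4 and 6, 7, 3 and 7 counts across knockdown libraries 1 to 4. In CPM the ranges were 0.336 to 0.542 and 0.186 to 0.365, with a log2 fold change of -0.45 (SE 0.43). Knockdown 1 and knockdown 3 lay below all controls. Hspb2 had 6, 5, 1 and 8 counts in the controls and 3, 6, 4 and 8 in the knockdown libraries, and the groups overlapped. With no filter on expression, its log2 fold change was 0.20 (SE 0.70), with an approximate 95% interval of -1.50 to 1.90, and its sign turned without control 3 (-0.14) and without knockdown 4 (-0.01). At this depth no difference in Hspb2 was detectable. The neighbouring Cryab held 583 to 960 counts, and the 252 exonic bases that both share leave it unknown how many Hspb2 counts arose from Cryab.

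Hspb7, a member known from heart and skeletal muscle, had 5, 4, 2 and 3 counts across controls 1 to 4 and 2.01, 5, 4 and 13 counts across knockdown libraries 1 to 4. In CPM these were 0.245, 0.192, 0.0944 and 0.148 in the controls and 0.108, 0.2605, 0.248 and 0.645 in the knockdown libraries. Knockdown 2, 3 and 4 lay above all controls, although 2 of them by a margin smaller than 1 count. With no filter, the log2 fold change was 0.88 (SE 0.73), with an approximate 95% interval of -0.90 to 2.66, and without knockdown 4 it was 0.26. Knockdown 4 also stood apart for skeletal muscle genes, named here after their values were seen. Myh1, a fast muscle myosin, was at 6.30 CPM there and at most 0.783 CPM elsewhere, and Tnnt3, fast muscle troponin T, was at 6.45 CPM there and at most 0.489 CPM elsewhere. Of the 14 listed muscle genes, 3 were tested and none was called, and 3 reached 1 TPM in all controls. The 6 listed heart muscle genes summed to 6.66 to 9.25 CPM among controls and 6.15 to 12.8 CPM among knockdown libraries, with 4 tested and none called. Their sum was highest in knockdown 1 and stood at 9.32 CPM in knockdown 4. The part of muscle RNA in the Hspb7 value was not tested.

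**Figure D4:**
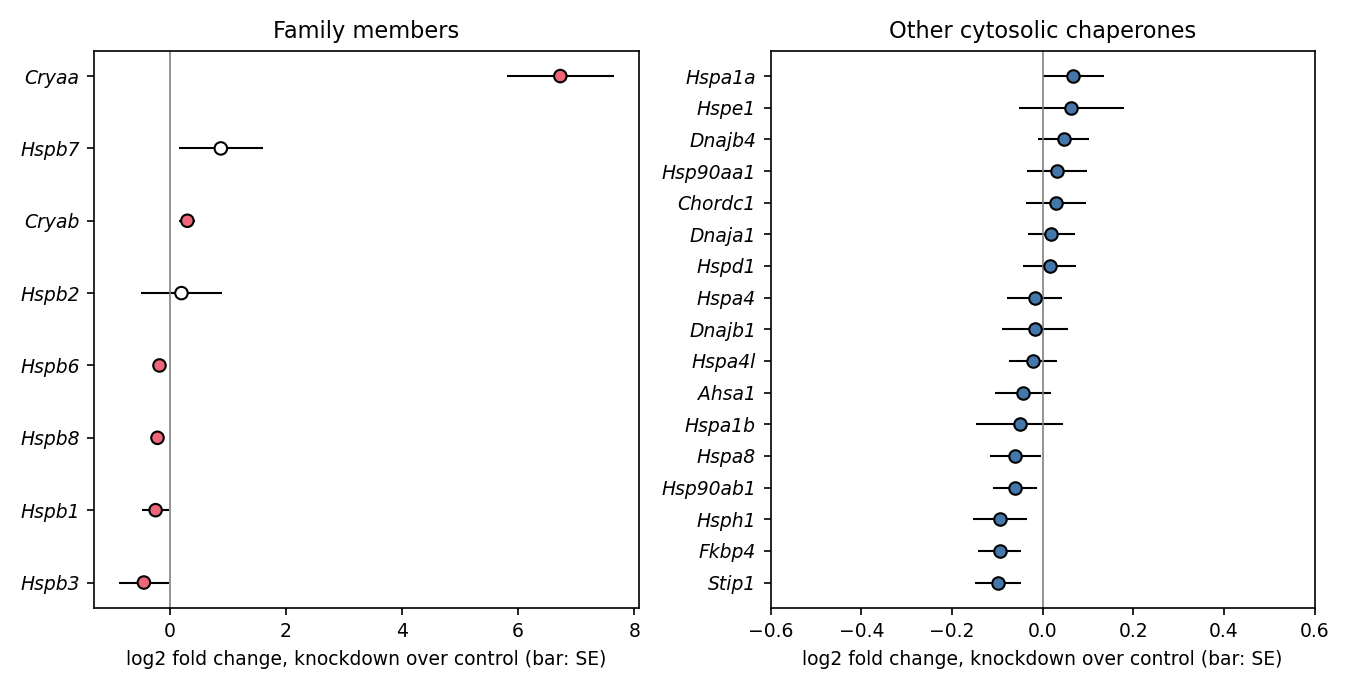
Log2 fold changes (knockdown over control, n = 4 libraries each) with bars of 1 SE, for the 8 members on the left and the 17 heat shock and cytosolic chaperone genes on the right, the panels with different axes. Open circles mark Hspb2 and Hspb7, which failed the filter and come from the fit with no filter. Cryaa, at 6.73, is the member farthest from 0, and the chaperones lie between -0.10 and 0.07.

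Heat shock and cytosolic chaperones outside the family, with some of their co-chaperones, showed no called difference. All 17 listed heat shock and cytosolic chaperone genes were tested, and 0 were called by edgeR, by DESeq2 or by limma, with 0 at an unadjusted edgeR p under 0.05. Their log2 fold changes were positive for 7 and negative for 10, with a median of -0.02, and ran from -0.10 for Stip1, a co-chaperone of the Hsp70 and Hsp90 machines, to 0.07 for Hspa1a, an inducible Hsp70. Hsp90aa1, an Hsp90 of the cytosol, was at 2351 ± 199 and 2404 ± 126 CPM (SD, n = 4 each; log2 fold change 0.03, SE 0.07, edgeR adjusted p = 0.997). Hspa8, the constitutive Hsp70, was at 1181 ± 77.8 and 1133 ± 32.1 CPM (SD, n = 4 each; log2 fold change -0.06, SE 0.06, adjusted p = 0.989 by edgeR). The summed level of the 17 was 5633 to 6447 CPM among controls and 5857 to 6265 CPM among knockdown libraries.

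Heat shock factors and co-chaperones of the small heat shock proteins, 8 genes, were all tested with none called, 3 positive and 5 negative log2 fold changes and a median of -0.03. Sqstm1, a receptor that brings proteins to autophagy, was at 223 ± 6.90 and 217 ± 10.7 CPM (SD, n = 4 each). Bag1, a co-chaperone of Hsp70, was at 54.6 ± 1.93 and 50.6 ± 1.62 CPM (SD, n = 4 each). The 4 listed kinases of the p38 pathway, which leads to phosphorylation of Hspb1 and Cryab, were tested with none called. Mapk14, the p38 alpha kinase, was at 67.9 ± 1.45 and 67.4 ± 3.03 CPM, and Mapkapk5, a kinase that p38 activates, at 44.9 ± 2.09 and 42.5 ± 2.09 CPM (SD, n = 4 each). Of the other genes with names in the family, Hspb11, which despite its name is a ciliary transport protein, was at 10.4 ± 1.28 and 11.1 ± 1.86 CPM (SD, n = 4 each; log2 fold change 0.10, SE 0.13). Hspb9, known from testis, had 0 to 4 counts, and Odf1, a sperm tail protein, had 0 in all libraries.

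Genes whose variation within the groups was most like that of each tested member were sought among all tested genes. Likeness was measured as Pearson's r of log2(TPM + 1) over the 8 libraries after subtracting each group's mean, and is a description of libraries that share their depth and composition. Cryaa varied most like 1700086O06Rik (r = 0.993), Cryba1 (r = 0.985), a beta-crystallin, and Pcca (r = 0.98), a subunit of propionyl-CoA carboxylase. Cryba1, like Cryaa, passed the filter through the knockdown libraries. In all, 60 tested genes had an r above 0.9 with Cryaa and 113 with Cryab, so the top genes are picked from many. Cryab varied most like Sox9, a factor of Müller glia, S100a16, a calcium-binding protein, and Crym, a thyroid hormone-binding protein (r = 0.983 each). Crym was at 152.8 CPM in knockdown 1 and at 71.9 to 86.0 CPM among controls, and Sox9 at 29.1 CPM in knockdown 1 and at 22.5 to 24.5 CPM among controls. Knockdown 1 was thus the library that these genes and Cryab have in common.

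For Hspb6 the genes most alike were Gm3636 (r = 0.976), Lrrc73 (r = 0.964) and ENSMUSG00000120994 (r = 0.961). Those of Hspb8 were Zfp420 (r = 0.987), Gm37584 (r = 0.984) and Tspan13 (r = 0.971), and those of Hspb1 were Slc7a11 (r = 0.971), the cystine transporter, Podnl1 (r = 0.964) and Mif4gd (r = 0.961). Hspb3 varied most like Mybphl (r = 0.968), Ttc7 (r = 0.965) and Tspan31 (r = 0.948). No gene was among the 3 most alike of more than 1 member, and longer lists were not compared. Among the members themselves, r ran from -0.79 for Cryaa with Hspb3 to 0.76 for Hspb1 with Hspb6 over 15 pairs, and was 0.49 for the pair of alpha-crystallins.

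Markers of tissues next to the retina, and of retinal ganglion cells and rods, were checked beside the members. The 8 retinal pigment epithelium genes summed to 157.5 to 194.9 CPM among controls and 143.6 to 198.5 CPM among knockdown libraries, with none called. The 7 corneal epithelium genes summed to 1.60 to 1.87 and 1.49 to 3.55 CPM, with none tested and with Krt5 and Krt14 at 0 in all libraries. The 8 ganglion cell genes summed to 1359 to 1522 CPM among controls and 1140 to 1399 CPM among knockdown libraries, and Slc17a6, the vesicular glutamate transporter of these neurons, was called lower. All 8 ganglion cell genes had negative log2 fold changes, with a median of -0.17 and 5 at an unadjusted edgeR p under 0.05. Over all tested genes, 850 of 16118 were under that threshold. So were 4 of 7 tested retinal pigment epithelium genes, 4 of 8 astrocyte and gliosis genes and 3 of 9 smooth muscle and pericyte genes. Those of the pigment epithelium went both ways, with Lrat (-0.41) and Rdh5 (-0.42) lower and Tyr (0.44) and Pmel (0.53) higher on the log2 scale. Those of gliosis, Lcn2, Serpina3n, Cp and Timp1, were all higher, each with its highest value in knockdown 1. Pdgfrb, Rgs5 and Cspg4, of smooth muscle and pericytes, were all lower. For rods the number under that threshold was 1 of 7, and for Müller glia 0 of 8. Of the 7 rod genes, 6 had negative log2 fold changes, with a median of -0.04, and none was called. The part of these cells in the members' values was not tested.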

How the data were processed

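Per the labels' protocols, TRIzol was used to extract retinal RNA, and paired reads came from a NovaSeq X Plus. The submitters' processing notes list Bowtie 0.12.2 and mm9 but give neither a role. The counting tool is not given in the sources used here, nor is its use of strand. The authors' deposited values are estimated counts, although the table's name says TPM, since libraries sum to 16.03 to 21.4 M and 77.5% to 79.9% of the entries above 0 are exactly whole numbers. Its 2 columns of group means were not used.

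Counts were rounded and tested with edgeR 4.0.16 (quasi-likelihood, TMM, R 4.3.3), adjusted over all tested genes. The filter, 1 TPM or more in 4 or more of the 8 libraries, kept 16118 of 29694 detected genes. TPM was computed from the counts and the table's gene lengths. SE is the size of the log2 fold change divided by the root of edgeR's F, and approximate 95% intervals use the residual degrees of freedom. Limma 3.58.1, DESeq2 1.42.0 and other filters and scalings were alternatives. Steps were tested on simulated data. GENCODE M21, used for positions alone, matched 52029 IDs (91.3%). Reads carry no molecular identifiers and are not independent molecules. The floor and the exact interval of the Cryaa count ratio cover counting error only. The approximate intervals rest on edgeR's SE, which includes the spread between libraries.

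Named genes are all 8 members, the 3 genes most alike to each tested member, and of each pathway list the called genes or else the 2 with the highest TPM. Other genes named, among them the marker genes, Bag3, Hspb9, Odf1, Stip1 and Hspa1a, were chosen after seeing their values. The members, lists and rules were chosen with earlier results of these data known. The groups are those of the labels.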

Additional observations from a re-analysis of the deposited data

Results flagged for a closer look

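In the knockdown group, 3 summed marker lists had a library far from the other 3. The skeletal and extraocular muscle genes summed to 70.4 CPM in knockdown 4, the library with the highest Hspb7 value. The astrocyte and gliosis genes summed to 826.6 CPM in knockdown 1, the library with the highest Cryab value. The smooth muscle and pericyte genes summed to 401.8 CPM in knockdown 3, the library with the lowest Hspb6 value, and to 388.0 to 390.3 CPM in the others. All 4 of these sums lay within the control range of 385 to 469 CPM, and most of each was Rgs5 (320.2 CPM in knockdown 3). The gap was compared with Dixon's 95% critical value, which chance passes in about 1 in 20 groups. The comparison was made for all 8 members and every pathway and marker list, in both groups. With that many comparisons, a few gaps past the critical value can arise by chance. As a share of the group's range, the gap was 0.961 for the skeletal and extraocular muscle genes and 0.958 for the astrocyte and gliosis genes. It was 0.837 for the smooth muscle and pericyte genes. No explanation was tested.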

How the results depend on the processing

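Against 7 genes called higher and 3 lower, the counts were 64 and 93 with no expression filter, 0 and 1 when a mean of 5 TPM was required, 16 and 29 with DESeq2, 0 and 0 with limma on log2(TPM + 1), and 0 and 0 with robust dispersion. At an unadjusted p under 0.05, 609 of 12310, 804 of 16118 and 833 of 16118 genes passed in the settings with 0 higher calls (mean TPM, limma and robust). These shares are near the 0.05 that passes when no gene differs. The main fit, with its 7 higher calls, was also near it (850 of 16118), while 1291 of 16118 passed without knockdown 1. Limma on log2(TPM + 0.1) called 8 higher and 1 lower. Leaving out 1 library gave 0 to 9 higher and 0 to 52 lower calls. There were 0 higher without control 1, 2 or 4 (674, 821 and 799 of 16118 unadjusted) and 52 lower without control 3. Members called higher were 1, or 0 when a mean of 5 TPM was required, with limma on log2(TPM + 1) or robust dispersion, and 0 to 1 when 1 library was left out. Cryaa was called in 11 of 17 alternatives. The causes were not tested. No heat shock list gene was called in any of the 17.

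Every member kept its sign in every alternative run apart from Hspb2, which, in fits with no filter added after seeing the data, ran from -0.14 (without control 3) and -0.01 (without knockdown 4) to 0.53. The Cryaa log2 fold change was 4.43 with limma on log2(TPM + 1), whose pseudocount shrinks low genes. Scaling by median of ratios or upper quartile changed no member's call.

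The replicate block gave 9 higher and 2 lower calls and left the Cryaa call in place (log2 fold change 6.56). Same-numbered libraries did not deviate together (r = 0.00678, -0.00697, -0.0307 and -0.183), and other pairs of a control and a knockdown library ran from -0.160 to 0.195. These correlations show no pairing by number but cannot exclude one.

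Members at a few counts per library (Hspb2, Hspb3, Hspb7 and Cryaa in the controls) lie near the floor of 3 counts, where small differences could not be seen at this depth.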
